A study of Mus musculus with 4 samples.

Results

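The genes described here are 9 that set which fast transmitter a neuron of the cerebellum releases, or that carry that transmitter across membranes. They were taken by name from the array annotation, as the probe sets with a single gene symbol among Slc17a6, Slc17a7, Slc17a8, Gad1, Gad2, Slc32a1, Slc6a11, Slc6a5 and Slc6a9. Each of the 9 had exactly 1 such probe set, and they are 9 of the 19938 genes measured in this way. Of these, 3 are glutamatergic and 6 serve the inhibitory transmitters GABA and glycine.

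Expression was measured with Affymetrix Mouse Gene 1.0 ST arrays in total RNA of 4 tissues, each on 1 array. The control was whole wild-type cerebellum at the age of 2 months. The tumours were 2 Math1-Cre;SmoM2 medulloblastomas, from mice aged 1 and 2 months, and 1 PtchLacZ/+ medulloblastoma, from a mouse aged 5 months. Medulloblastoma is a cerebellar tumour, and its Hedgehog form arises from granule neuron progenitors. In the Math1-Cre;SmoM2 mice Cre acts where Math1 (Atoh1) is expressed, and SmoM2 is an active form of Smoothened, the transducer of the Hedgehog signal. The PtchLacZ/+ mice carry a lacZ allele of the Hedgehog receptor gene Ptch1 in all their cells. All mice had a mixed background with C57BL/6 and C3H contributions. The labels name no animals or pools, but the tumours differ from each other in age, so they come from different mice. An error here, and a p-value based on it, rests on the spread among tumours. That spread mixes technical variation, animal, age and, where both models enter, genotype, and these parts cannot be separated. The spread among cerebella was not measured. No genotype has more than 2 arrays, and between the tumour models genotype and age cannot be told apart. In bulk tissue, fewer cells of a type and less RNA per cell cannot be told apart either.

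A neuron that releases glutamate loads it into vesicles with a vesicular glutamate transporter. VGLUT1, encoded by Slc17a7, serves mature granule neurons, whose parallel fibres make up most excitatory synapses of the cerebellar cortex. VGLUT2, encoded by Slc17a6, is used by young granule neurons before VGLUT1 takes over, and by deep nuclear neurons and climbing fibres. Purkinje cells and cortical interneurons make GABA with the decarboxylases GAD67 (Gad1) and GAD65 (Gad2) and load it with VGAT (Slc32a1), which also loads glycine. Golgi cells and some nuclear neurons take up glycine through GlyT2 (Slc6a5), while glial cells use GlyT1 (Slc6a9) for glycine and GAT3 (Slc6a11) for GABA.

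The windows before the start sites show the regulatory sequence of the pair of glutamate transporter genes contrasted below and of both decarboxylase genes, which changed together. Each is the 250 bases upstream of a start site in the RefSeq annotation of mouse build GRCm38.p6, on the plus strand, and capitals mark CANNTG, the E-box that basic helix-loop-helix factors such as Atoh1 can bind. The windows lie at chr7:51621580-51621829 for Slc17a6, chr7:45163671-45163920 for Slc17a7, chr2:70561879-70562128 for Gad1 and chr2:22622077-22622326 for Gad2. For Slc17a6 it is the first of the start sites listed.
Slc17a6: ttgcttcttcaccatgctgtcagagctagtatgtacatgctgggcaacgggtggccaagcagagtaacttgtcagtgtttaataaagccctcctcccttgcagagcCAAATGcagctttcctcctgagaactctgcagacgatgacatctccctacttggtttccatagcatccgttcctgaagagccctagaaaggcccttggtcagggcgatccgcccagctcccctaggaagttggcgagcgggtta
Slc17a7: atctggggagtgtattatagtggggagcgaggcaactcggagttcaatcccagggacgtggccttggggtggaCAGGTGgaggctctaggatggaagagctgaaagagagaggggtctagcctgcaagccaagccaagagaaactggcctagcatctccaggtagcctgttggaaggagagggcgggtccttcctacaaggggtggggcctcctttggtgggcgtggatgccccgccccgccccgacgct
Gad1: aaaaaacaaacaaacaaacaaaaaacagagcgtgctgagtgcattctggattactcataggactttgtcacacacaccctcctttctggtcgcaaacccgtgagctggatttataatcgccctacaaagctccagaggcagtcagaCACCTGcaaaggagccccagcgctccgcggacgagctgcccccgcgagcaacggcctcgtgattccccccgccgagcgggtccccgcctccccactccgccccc
Gad2: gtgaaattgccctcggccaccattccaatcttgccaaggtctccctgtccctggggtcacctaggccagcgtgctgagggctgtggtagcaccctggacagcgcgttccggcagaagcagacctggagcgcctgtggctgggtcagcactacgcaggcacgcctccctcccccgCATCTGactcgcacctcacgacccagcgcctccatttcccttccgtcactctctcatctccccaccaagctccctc

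Each of the 4 windows held 1 E-box. With 50 bases after the start included, windows of 300 bases held CANNTG, which reads the same on both strands, in 72.3% of all 32851 windows of that table, so its presence does not set these genes apart. The E-box with the centre GC, CAGCTG, was in 16.3% of all windows and in none of the 14 windows of the members. The GC box GGGCGG, searched on both strands, was found 3 times in the window of Slc17a7 and 1 time each in the window of Gad1 and the first window of Slc17a6. Of the other members, Slc6a11 held it 4 times and the first window of Slc6a9 2 times, and 35.7% of all windows held it. The word TATAAA, searched the same way, was found in the window of Gad1 alone among the 14, against 13.6% of all windows. The GC content of the 300 bases was 63.7% for Slc17a7, 53.7% for the first window of Slc17a6, 60.0% for Gad1 and 61.3% for Gad2, where the median over all windows was 52.7%. These matches describe letters only. Slc17a6, Slc17a7 and Slc6a5 lie on chromosome 7, Gad1, Gad2 and Slc32a1 on chromosome 2, Slc6a9 on chromosome 4, Slc6a11 on chromosome 6 and Slc17a8 on chromosome 10.

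The values are log2 levels from an array, in which 1 unit is a 2-fold change of signal. No detection calls were used. The lower quartile of named genes, between 5.09 and 5.17 on the arrays, therefore serves as a guide: signal beneath it may be background, which makes a difference from it a lower limit. The genes of the design were read first. Atoh1 was at 4.85 in the cerebellum and between 11.39 and 11.98 in the tumours, and the Hedgehog target Gli1 was at 7.21 against 9.29 to 10.03. Smo was at 7.40 in the cerebellum and 9.72 to 10.69 in the tumours, while Ptch1 read 10.24 in the cerebellum, 11.88 in the younger and 11.55 in the older SmoM2 tumour, and 9.81 with PtchLacZ/+. Whether these last probe sets cover the altered parts of the genes was not determined, so they do not check the genotypes. The cerebellum showed Gabra6, which marks mature granule neurons, at 12.24 and the Purkinje cell gene Calb1 at 11.92.

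**Figure D1:**
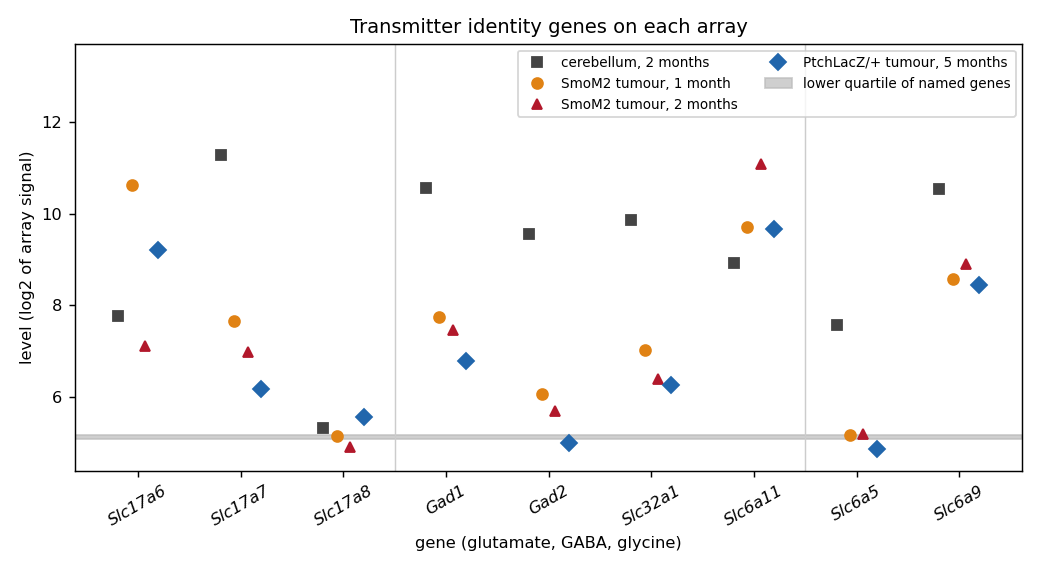
Level of each of the 9 genes (log2 of array signal, vertical axis) on the 4 arrays, ordered as glutamate, GABA and glycine genes; each symbol is 1 array and the grey band is the lower quartile of named genes. The cerebellum is above all 3 tumours for 6 genes, below all 3 for Slc6a11, and between tumours for Slc17a6 and Slc17a8. Over all genes it is above all 3 in 32.0% and below all 3 in 38.1%.

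The first comparison set the 3 tumours against the cerebellum, to ask which transmitter genes distinguish these tumours from the tissue in which they grow. The VGLUT1 gene Slc17a7, both GABA synthesis genes, the vesicular inhibitory transporter gene and both glycine transporter genes fell. The VGLUT2 gene Slc17a6, VGLUT3 and the GABA transporter gene Slc6a11 did not pass. In all, 6 of the 9 genes passed at an adjusted p under 0.05 in limma, each of them lower in the tumours, where 9.30% of all 19938 genes passed as lower and 6.70% as higher. At a 2-fold limit, 6 of the 9 were lower in each tumour, against 9.95%, 9.87% and 10.6% of all genes in the 1-month SmoM2, 2-month SmoM2 and PtchLacZ/+ tumour. In each tumour 1 was 2-fold higher, which was Slc17a6 in the 1-month SmoM2 and the PtchLacZ/+ tumour and Slc6a11 in the 2-month SmoM2 tumour, against 6.81%, 9.43% and 7.91%. The median difference of the 9 genes was -2.50, and that of all genes 0.04.

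Among the glutamatergic genes, Slc17a7 had a cerebellar level of 11.28, which compares with 7.66 (1 month) and 6.98 (2 months) for SmoM2 and 6.18 for PtchLacZ/+. Every tumour lay far below the cerebellum, and the tumours themselves spanned 1.48 units. The fall was 4.34 ± 0.57 (limma's standard error, as for every ± below unless SD is named; 3 tumours against 1 cerebellum, adjusted p = 0.0111 by limma with Benjamini-Hochberg adjustment), or 20.2-fold, with a 95% interval from -5.79 to -2.88. Only 18 of the 19938 genes had a more negative difference. Against the cerebellum the loss was 12.3-fold (1 month) and 19.6-fold (2 months) for SmoM2 and 34.2-fold for PtchLacZ/+.

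Slc17a6 behaved differently on each tumour array. It was at 7.77 in the cerebellum, 10.62 in the SmoM2 tumour at 1 month, 7.12 in the SmoM2 tumour at 2 months and 9.22 in the PtchLacZ/+ tumour. The level was thus 7.19-fold and 2.73-fold that of the cerebellum in the 1-month SmoM2 and the PtchLacZ/+ tumour, while the 2-month SmoM2 tumour lay 0.65 units under the cerebellum. In order of level, the 1-month SmoM2 tumour came first, then the PtchLacZ/+ tumour, the cerebellum and the 2-month SmoM2 tumour, and with 1 array per tissue no pair of neighbours in that order has a spread of its own. The mean difference of 1.21 ± 1.30 did not pass (limma adjusted p = 0.632, 95% interval -2.13 to 4.55). Without the 2-month SmoM2 tumour it was 2.15 and passed, in a fit where more of all genes passed too, in both directions. Leaving out the 1-month SmoM2 or the PtchLacZ/+ tumour gave 0.40 and 1.10. The SD over the 3 tumours was 1.76, and only 17 of the 19938 genes had a larger one.

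Slc17a8, which encodes VGLUT3, a transporter of few neuron types, was low throughout. Its level was 5.34 in cerebellum, 5.16 (1 month) and 4.92 (2 months) for SmoM2 and 5.57 for PtchLacZ/+. Both SmoM2 values were under the lower quartile of their arrays, and the cerebellum lay among the tumours. The difference was -0.13 ± 0.29 (limma adjusted p = 0.843).

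The contrast between Slc17a6 and Slc17a7 was made on their changes, because levels of different probe sets cannot be compared. Relative to the cerebellum, Slc17a6 gained on Slc17a7 by 6.46 units in the 1-month SmoM2 tumour, 3.65 in the 2-month SmoM2 tumour and 6.54 in the PtchLacZ/+ tumour. The RNA balance of this pair was thus shifted towards Slc17a6 in each tumour, by at least 12.5-fold, while the proteins were not measured. In the 2-month SmoM2 tumour that shift came from the fall of Slc17a7 alone, since Slc17a6 was itself lower than in the cerebellum. The mean shift was 5.55 ± 1.65 (SD, n = 3). In an exact two-sided permutation test over the 4 arrays p was 0.25, the smallest value that 3 arrays against 1 can give, so the test cannot pass.

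**Figure D2:**
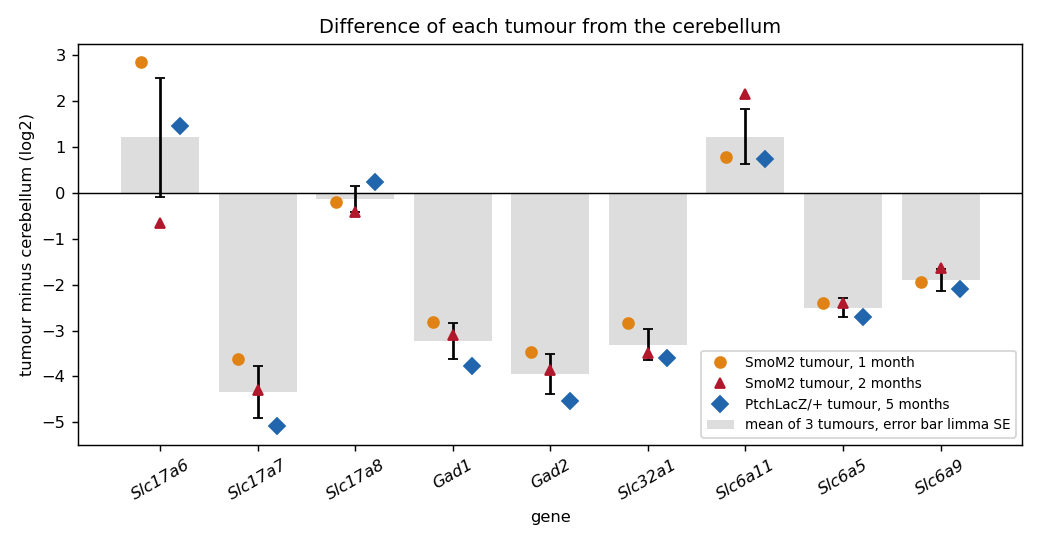
Difference of each tumour from the cerebellum (log2, vertical axis) for the 9 genes; symbols are single tumours, bars the mean of 3 tumours and error bars limma's standard error. Slc17a7 lies between -5.09 and -3.62 in the tumours, while Slc17a6 runs from -0.65 to 2.85.

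Genes of GABA synthesis and loading fell in each tumour. Gad1 went from 10.56 in cerebellum to 7.75 (1 month) and 7.46 (2 months) for SmoM2 and 6.78 for PtchLacZ/+. Gad2 went from 9.55 to 6.08, 5.70 and 5.01 in the same order, the last of these under the lower quartile of its array. Slc32a1 went from 9.87 to 7.03, 6.40 and 6.27. For all 3 genes every tumour lay below the 1 cerebellum array, as in 32.0% of all genes. The 1-month SmoM2 tumour was the highest of the tumours and the PtchLacZ/+ tumour the lowest. Gad1 fell by 3.23 ± 0.40 (9.39-fold, limma adjusted p = 0.0101), Gad2 fell by 3.95 ± 0.43 (at least 15.5-fold, adjusted p = 0.00750) and Slc32a1 fell by 3.31 ± 0.34 (9.90-fold, adjusted p = 0.00686).

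Glycine transporter genes also fell, those of neurons and of glia alike. Slc6a5, the neuronal GlyT2 gene, had levels of 7.58 in cerebellum, 5.18 (1 month) and 5.19 (2 months) for SmoM2 and 4.88 for PtchLacZ/+. The PtchLacZ/+ value lies under the lower quartile of its array and both SmoM2 values just above it, so the fall of 2.50 ± 0.21 (limma adjusted p = 0.00488) is a lower limit. Slc6a9, the GlyT1 gene of glia, had levels of 10.53, 8.58, 8.90 and 8.44 in that order. It kept a clear signal in the tumours and fell by 1.89 ± 0.24 (3.72-fold, limma adjusted p = 0.0101).

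Slc6a11, the GAT3 gene, was the only member with all 3 tumours above the cerebellum. Its cerebellar level was 8.93, and the tumours had 9.72 (SmoM2, 1 month), 11.08 (SmoM2, 2 months) and 9.67 (PtchLacZ/+). The 2-month SmoM2 tumour was the highest by over 1 unit. The difference of 1.23 ± 0.61 did not pass (limma adjusted p = 0.266, 95% interval -0.33 to 2.79). Without the 2-month SmoM2 tumour it was smaller, 0.77, but passed, in a fit where more of all genes passed too. Without the 1-month SmoM2 or the PtchLacZ/+ tumour it was 1.45 and 1.47 and did not pass. Over all genes, 38.1% had all 3 tumours above the cerebellum and 32.0% all 3 below.

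By group median, the inhibitory genes had the larger loss. The largest fall of any single member was that of the glutamatergic gene Slc17a7 (-4.34, against -3.95 for Gad2, the largest inhibitory fall). The median change of the 6 inhibitory genes was -2.61, -2.75 and -3.15 in the 1-month SmoM2, the 2-month SmoM2 and the PtchLacZ/+ tumour. The median change of the 3 glutamatergic genes was -0.19, -0.65 and 0.23 in the same order, with the medians of all genes at 0.01, 0.07 and 0.03. The glutamatergic median is that of the low-level gene Slc17a8 in the 1-month SmoM2 and the PtchLacZ/+ tumour and of Slc17a6 in the 2-month SmoM2 tumour and does not show how far Slc17a6 and Slc17a7 lie apart. The gap between the medians was 2.42, 2.10 and 3.38, and 2.64, 2.64 and 3.92 with the inhibitory group limited to Slc32a1, Gad1, Gad2 and Slc6a5, of which all 4 passed as lower. No test was made of these medians, since the genes were picked with results known.

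The falls of Gad1, Gad2, Slc32a1 and Slc6a5 are set beside the markers of the cells that use them. For the counts of this and every later list, the share over all genes was 9.30% lower and 6.70% higher. Of 8 measured Purkinje cell markers, 6 fell, and their summed linear signal was 19357 in the cerebellum against 571 to 1854 in the tumours. Ppp1r17, whose product inhibits a phosphatase, fell by 5.55 ± 0.85 (limma adjusted p = 0.0165), and Calb1, a calcium-binding protein gene, differed by -5.11 ± 1.51 (adjusted p = 0.0905). Calb1 passed with the low genes filtered out (adjusted p = 0.0450), and also when the 2-month SmoM2 or the PtchLacZ/+ tumour was left out (-5.68 and -3.92, adjusted p = 0.0279 and 0.0125). Both were under the lower quartile of the PtchLacZ/+ array. Of 11 cerebellar interneuron markers, 9 fell, with a summed signal of 10560 in the cerebellum and 1436 to 1974 in the tumours. Among them Pvalb, the parvalbumin gene, fell by 4.18 ± 0.81 (adjusted p = 0.0307) and the transcription factor gene Tfap2b fell by 2.77 ± 0.19 (adjusted p = 0.00400), while Nxph1 differed by 0.18 ± 0.24 (adjusted p = 0.710), or by 0.66 with probe sets averaged (adjusted p = 0.191). Pvalb, at 12.60 in the cerebellum, made up the largest part of the interneuron sum there. The part of these cells in the falls was not tested, nor how much of the Pvalb signal came from interneurons.

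Slc17a7 fell along with other genes of mature granule neurons. Of 10 such markers, 6 fell, and the summed signal was 40342 in cerebellum, 6091 (1 month) and 3567 (2 months) for SmoM2 and 3451 for PtchLacZ/+. Vsnl1, a neuronal calcium sensor gene, fell by 5.48 ± 0.95 (limma adjusted p = 0.0227). Gabra6, the GABA receptor subunit gene of these neurons, differed by -5.57 ± 1.31 (adjusted p = 0.0509), and was at 4.64 in the PtchLacZ/+ tumour, under the lower quartile. Gabra6 passed in 7 of the 8 alternatives, with adjusted p from 0.0125 to 0.0481, but not with probe sets averaged (0.0516). The markers of deep nuclear neurons, which use VGLUT2, and of unipolar brush neurons, read as 1 list, were divided. Of 10 measured, 5 fell and 1 rose, with the neurofilament genes Nefm and Nefh at -3.47 ± 0.19 and -3.02 ± 0.45 (adjusted p = 0.00335 and 0.0154) and the transcription factor gene Neurod6 at 2.80 ± 0.58 (adjusted p = 0.0364). Pou4f1 differed by 0.82 ± 0.51 (adjusted p = 0.383), and passed without the 2-month SmoM2 tumour (1.14), a fit in which more of all genes passed. Tbr1, Lhx9 and Meis2, the rest that did not pass, had levels near the lower quartile and differed by 0.06, -0.03 and -0.27. The summed signal of the 10 markers was 4488 in the cerebellum and 917 to 1238 in the tumours. Plcb4, Nefh and Nefm, at 10.95, 10.07 and 9.91 in the cerebellum, weigh most in that sum. The part of these cells in the Slc17a6 level was not tested.

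The glial transporters Slc6a9 and Slc6a11 stand beside astrocyte and Bergmann glia markers, of which 8 of 10 fell. Their summed signal was 26487 in cerebellum, 7109 (1 month) and 7150 (2 months) for SmoM2 and 4185 for PtchLacZ/+. Aldoc, at 13.69 in the cerebellum, made up the largest part of the cerebellar sum. Gja1, a connexin gene, and Aldoc, an aldolase gene, fell, with differences of -3.05 ± 0.64 and -2.84 ± 0.58 (limma adjusted p = 0.0375 and 0.0342). Slc6a9 shared that direction. Slc6a11 had the other sign, as did Gfap, the filament gene of reactive astrocytes, with levels of 7.60, 8.83, 9.33 and 8.15 in that order (1.17 ± 0.46, adjusted p = 0.173). Gfap and Slc6a11 both had the 2-month SmoM2 tumour highest of the tumours. The PtchLacZ/+ tumour was lowest for both, but for Slc6a11 it nearly equalled the 1-month SmoM2 tumour (9.67 against 9.72). That order was not particular to them, since Gja1, S100b and Slc1a3, which fell, had it too. The PtchLacZ/+ tumour was lowest in 9 of the 10 markers. The part of glial cells was not tested, nor how much of the Aldoc signal was glial. Markers of oligodendrocytes (6 of 7 lower, with Ermn and Mag at -3.35 ± 0.35 and -3.28 ± 0.68), of microglia and macrophages (5 of 8 higher, with Cd68 and C1qb at 3.17 ± 0.30 and 2.79 ± 0.34) and of dividing cells (7 of 7 higher, with Ccna2 and Top2a at 6.34 ± 0.19 and 5.78 ± 0.19) moved as well, with adjusted p from 0.00231 to 0.0359 for these named genes. With probe sets averaged, the difference of Top2a was 3.12 (adjusted p = 0.00380).

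Transcription factors that direct each transmitter fate were then read from companion lists. Of 16 glutamatergic lineage factors of the cerebellum, 6 rose and 2 fell, with a median difference of 0.97. Neurod6, Eomes, Tbr1, Lhx9 and Meis2 are also in the list of deep nuclear and unipolar brush neurons, so they enter both counts. Atoh1, which specifies the granule lineage, rose by 6.88 ± 0.28 (limma adjusted p = 0.00295) and the neural helix-loop-helix gene Nhlh1 rose by 5.75 ± 0.34 (adjusted p = 0.00335), both from cerebellar levels beneath the lower quartile. Eomes, a factor of unipolar brush cells, fell by 1.43 ± 0.18 (adjusted p = 0.0101), and Neurod1 differed by -1.23 ± 0.49 (adjusted p = 0.175). Without the 2-month SmoM2 tumour, a fit in which more of all genes passed, Neurod1 passed as lower (-0.87). Of 15 inhibitory lineage factors measured, none rose and 1 fell, which was Tfap2b, also counted among the interneuron markers. The median difference was 0.04. In the cerebellum the median level of this list was 5.8, not far above the lower quartile of 5.09, which leaves many of these factors little room to fall. Among all genes 6.70% passed as higher and 9.30% as lower, and the inhibitory counts were near those shares. Foxp2 and Lhx1, factors of Purkinje cells among others, differed by 1.46 ± 0.68 and 0.92 ± 0.40, and Lhx5 by -0.95 ± 0.36 (adjusted p = 0.240, 0.215 and 0.163). These counts depend on the arrays used, since without the 2-month SmoM2 tumour Foxp2 and Lhx1 passed as higher (1.85 and 1.20) and Lhx5 as lower (-1.19). More of all genes passed in that fit too, in both directions, so these calls are not particular to the lineage factors. The determinant of the GABAergic lineage, Ptf1a, was under the lower quartile on all 4 arrays, at 4.91 to 5.03.

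Enzymes and transporters that supply or clear the same transmitters changed in part. Of 12 measured genes of glutamate supply and clearance, 3 fell and 1 rose, against 9.30% and 6.70% of all genes. Slc1a6, the glutamate transporter gene of Purkinje cells, fell by 3.68 ± 0.56 (limma adjusted p = 0.0160), Got1, the cytosolic aspartate aminotransferase gene, fell by 3.34 ± 0.37 (adjusted p = 0.00783), the glutamine transporter gene Slc38a5 rose by 0.97 ± 0.19 (adjusted p = 0.0301) and Slc38a2 differed by 0.23 ± 0.29 (adjusted p = 0.695). Slc38a5 missed the threshold after quantile normalization (0.89, adjusted p = 0.0639) and without the 1-month SmoM2 or the PtchLacZ/+ tumour (adjusted p = 0.0743 and 0.102). Of 4 genes of GABA uptake and breakdown, 3 fell, among them Abat, the GABA transaminase gene (-1.89 ± 0.34, adjusted p = 0.0244), and Slc6a13, the GAT2 gene (-1.65 ± 0.25, adjusted p = 0.0160), whose adjusted p was 0.0552 when the PtchLacZ/+ tumour was left out.

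Of 11 measured genes of glycine synthesis, breakdown and receptors, 2 rose and 5 fell. Those that rose were Shmt1 and Shmt2, which make glycine from serine and feed one-carbon units to nucleotide synthesis, at 2.27 ± 0.23 and 2.03 ± 0.45 (limma adjusted p = 0.00670 and 0.0441), but Shmt2 missed the threshold when the PtchLacZ/+ tumour was left out (2.07, adjusted p = 0.0943). Glrb, the shared subunit gene of glycine receptors, fell by 2.15 ± 0.17 (adjusted p = 0.00476), and Amt of the glycine cleavage system fell by 1.62 ± 0.19 (adjusted p = 0.00948). Of 14 genes for acetylcholine, monoamines, histamine and vesicular nucleotide transport, 1 rose and none fell, where 6.70% of all genes passed as higher and 9.30% as lower, and 5 were under the lower quartile on each array. The one that rose was the choline transporter gene Slc5a7, at 4.55 in the cerebellum and 6.54 to 7.18 in the tumours (2.36 ± 0.29, adjusted p = 0.0101). Slc6a2, Hdc and Ddc differed by 1.41 ± 0.46, -0.94 ± 0.34 and -0.31 ± 0.19 (adjusted p = 0.114, 0.146 and 0.362). Slc6a2 and Hdc passed when the 2-month SmoM2 tumour was left out (1.08 and -1.18), a fit in which more of all genes passed.

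**Figure D3:**
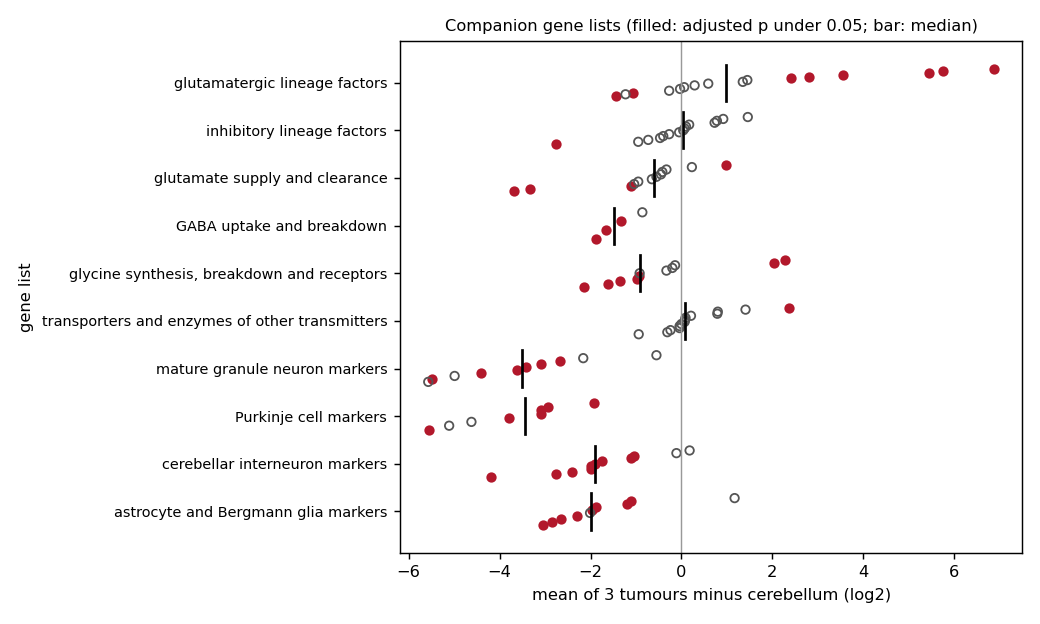
Mean of 3 tumours minus the cerebellum (log2, horizontal axis) for genes of 10 lists (vertical axis); each point is a gene, filled where the limma adjusted p was under 0.05, and the vertical bar is the list's median. The medians are 0.97 for glutamatergic and 0.04 for inhibitory lineage factors, against -3.51 for mature granule neuron markers and -3.45 for Purkinje cell markers. Inhibitory lineage factors had a median cerebellar level of 5.8, which leaves little room to fall.

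The tumour models were compared next, as the PtchLacZ/+ tumour against the 2 SmoM2 tumours. None of the 9 genes passed, and no gene of the 19938 did (0%, limma with 1 residual degree of freedom; 280 genes, or 1.40%, had an unadjusted p under 0.05). Slc17a7 was 1.14 ± 0.37 lower in the PtchLacZ/+ tumour, a difference of -1.14 with a 95% interval from -2.10 to -0.17. Gad2 and Gad1 differed by -0.88 ± 0.30 and -0.83 ± 0.28, with intervals from -1.65 to -0.11 and from -1.55 to -0.10. For these 3 genes the unadjusted p was 0.0295, 0.0332 and 0.0327, and the adjusted p 1.00 in limma. The other inhibitory genes differed by -0.73 to -0.30. In all 6 inhibitory genes and Slc17a7 the PtchLacZ/+ tumour was the lowest of the 3 tumours, as it was in 31.1% of all genes, and 6 of 8 Purkinje cell, 6 of 11 interneuron, 6 of 10 mature granule neuron, 9 of 10 astrocyte and Bergmann glia and 7 of 7 oligodendrocyte markers had it lowest too. Slc17a6 differed by 0.35 ± 1.41, with the PtchLacZ/+ tumour between the SmoM2 tumours, 2.10 above the one at 2 months and 1.40 below the one at 1 month.

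The last comparison was between the SmoM2 tumours at 1 and 2 months. With 1 array each there is no test, and genes at least 2-fold apart were counted. Of the 9 genes 2 were, against 3.71% of all genes. Slc17a6 was past 2-fold towards 1 month, as were 2.05% of all genes, and Slc6a11 towards 2 months, as were 1.66%. Slc17a6 was 3.50 units, or 11.3-fold, higher at 1 month, and 7 of 19938 genes had a larger difference in that direction. Slc6a11 had the difference of -1.36, lower at 1 month. Slc17a7, Slc32a1, Gad2 and Gad1 were 0.68, 0.63, 0.39 and 0.29 units higher at 1 month, and Slc6a9 and Slc6a5 differed by -0.32 and -0.01. The median of all genes was -0.08, and of the 19938 genes 987, 1136, 2371 and 3201 had a more positive difference than Slc17a7, Slc32a1, Gad2 and Gad1.

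**Figure D4:**
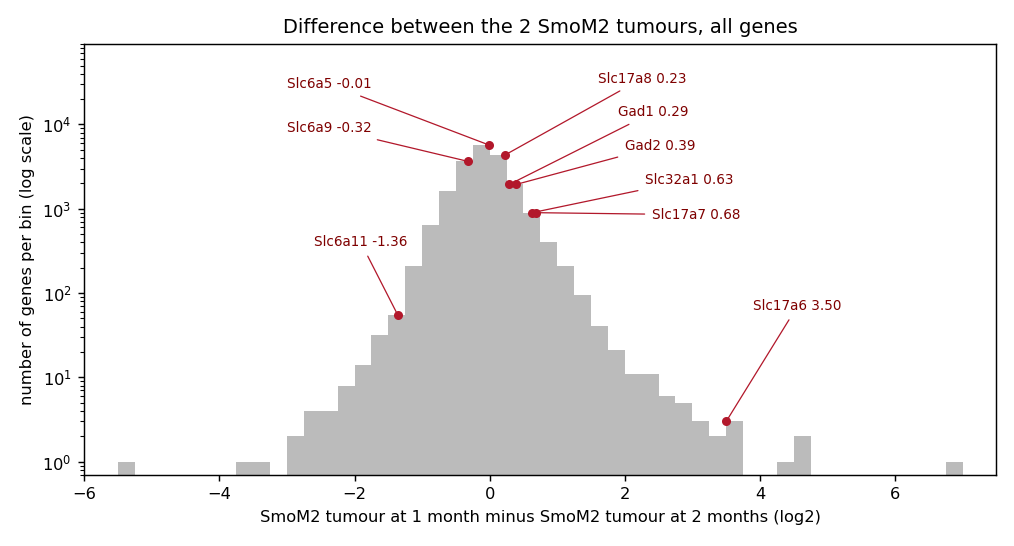
Number of genes (vertical axis, log scale) by the difference between the SmoM2 tumours at 1 and 2 months (log2, horizontal axis); red points mark the 9 genes with their differences. Slc17a6 at 3.50 stands in the upper tail and Slc6a11 at -1.36 in the lower, with the other 7 between -0.32 and 0.68.

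The 2-month SmoM2 tumour was also the lowest tumour for 9 of the 16 glutamatergic lineage factors, against 30.8% of all genes, and for 2 of 15 inhibitory lineage factors. Neurod1, for example, was at 11.10 at 1 month, 10.00 at 2 months and 11.07 in the PtchLacZ/+ tumour. Mature granule neuron markers were higher at 1 month in 7 of 10 cases, with a median difference of 0.49, while dividing cell markers were higher at 1 month in 2 of 7, with a median of -0.24. Over all genes, 8005 of 19938 were higher at 1 month.

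Genes with the course most like that of the members were found by the Euclidean distance over the 3 tumour-minus-cerebellum differences, among genes above the median level. For Slc17a6 the nearest 5 of 9968 candidates were Galr1, Zbtb20, Gm7265, Tbrg3 and Mir99a, at distances of 1.04 to 1.25. These distances exceeded those of the neighbours of Slc17a7, Gad1 and Gad2. Galr1, for example, differed from the cerebellum by 1.96 (1 month) and -0.82 (2 months) for SmoM2 and by 0.94 for PtchLacZ/+. Slc17a7 had close companions in St8sia5, Faim2, Phyhip, Adcy1 and Slc12a5, at 0.21 to 0.39. For Gad1 they were Arhgap26, Ndn, Atp6v1g2, Got1 and Slc6a17 (0.10 to 0.29), and for Gad2 Lgi1, Eef1a2, Fgf14, Trpc1 and Syt1 (0.21 to 0.37). Their likeness rests on 3 differences that share 1 cerebellum.

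The place of the genes on the chromosomes was read in the same way. Slc6a5 lies within 5 measured genes of Slc17a6 on chromosome 7, and it fell where Slc17a6 did not pass. The 10 measured neighbours of Slc17a6 had a median difference of -0.14, -0.05 and 0.03 in the 1-month SmoM2, the 2-month SmoM2 and the PtchLacZ/+ tumour, and those of Slc17a7 one of 0.65, 0.78 and 0.42. All measured genes of chromosome 7 had medians of 0.03, 0.08 and 0.04, against 0.01, 0.07 and 0.03 for all genes.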

How the data were processed

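The log2 expression values of 35557 probe sets on 4 arrays were deposited by the authors as 1 table. The submitters' processing notes name Affymetrix Expression Console. The sources used here do not give its version or how signals were summarised and normalized. From their range, 2.71 to 14.9, the values were taken to be log2. They entered the fits unchanged and unfiltered, and the number of arrays limits the precision. The platform annotation gave 21789 probe sets a single symbol, 1621 several and 12147 none. Symbols were updated by Entrez identifier through RefSeq (GRCm38.p6, 21698 matches). A gene with several probe sets was read from the one with the highest mean, which left 19938 genes. Near-identical stretches of related genes could share probes, which was not checked.

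Tests used limma 3.58.1 in R 4.3.3 (lmFit, eBayes, Benjamini-Hochberg over all genes, threshold 0.05), with 2 residual degrees of freedom for tumours against cerebellum and 1 for PtchLacZ/+ against SmoM2. A group with 1 array was taken to have the spread of the other arrays. The script was tested on simulated data. The companion lists held 148 genes in 14 lists, of which 136 were measured. Some genes were in more than 1 list, among them Neurod6, Eomes, Tbr1, Lhx9, Meis2, Tfap2b and Slc1a3, so the list counts are not separate observations. Members, lists and tests were chosen with earlier results of these data known. From each list the text names up to 2 genes per direction, by size of difference. Ptf1a, Plcb4, Tbr1, Lhx9, Meis2 and the motifs were chosen after values were seen. Alternatives were quantile normalization, centred array medians, averaged probe sets, a filter on low genes, a trended prior, another fold and each tumour left out.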

Additional observations from a re-analysis of the deposited data

Results flagged for a closer look

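Slc17a6 is given here because the SmoM2 tumours at 1 and 2 months lay on opposite sides of the cerebellum, 3.50 log2 units apart. Each age is 1 array, and the difference was not tested. The levels were 10.62 and 7.12, against 7.77 in the cerebellum. Among the genes of the companion lists, Reln and Cacng3, picked out after their values were seen, also had SmoM2 tumours on opposite sides of the cerebellum and at least 1 unit apart. Reln was at 10.90 and 8.64 at 1 and 2 months, with the cerebellum at 10.54, and Cacng3 was at 5.85 and 7.36, with the cerebellum at 6.95.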

How the results depend on the processing

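The 6 members that fell in the tumours kept direction and call under quantile normalization, centred array medians, averaged probe sets, a trended prior and without any 1 tumour (adjusted p from 0.000909 to 0.0328), and the 4 of them above the median level did so under the filter. Leaving out 1 tumour moved the count of genes higher between 628 (without the PtchLacZ/+ tumour) and 2689 (without the 2-month SmoM2 tumour) and of genes lower between 937 and 3321, around 1336 and 1855. Slc17a8 then ranged from -0.30 to 0.02, and Slc17a6 in PtchLacZ/+ against SmoM2 from -1.40 to 2.10. The shift between Slc17a6 and Slc17a7 ranged from 5.05 to 6.50 and the gap between group medians from 2.26 to 2.90. In PtchLacZ/+ against SmoM2, where no gene passed, 2 genes passed as higher and 12 as lower after quantile normalization, 4 as lower above the median level and 1 as lower with a trended prior, none of them a member. Between the SmoM2 tumours, 220 genes against 331 were 2-fold higher at 2 months above the median level, and at 1.5-fold 1307 genes were higher at 1 month and 1882 at 2 months. In each the cause was not tested. No paired analysis was possible, since every array is of a different genotype or age. Signal near background limits Slc17a8, Slc6a5 and, in the PtchLacZ/+ tumour, Gad2.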
